A study of Mus musculus with 15 samples.

Results

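NRF1 (encoded by *Nfe2l1*) and NRF2 (*Nfe2l2*) are transcription factors of the CNC family, and the mRNA levels of these factors and of 7 genes that process, restrain or partner them were followed in mouse fibroblasts after the sudden appearance of an unfolded protein. The 9 genes were taken by name from the 20207 genes of the tables: *Nfe2l1*, *Nfe2l2*, *Ddi2*, *Ngly1*, *Keap1*, *Maff*, *Mafg*, *Mafk* and *Bach1*. All 9 passed the filter of at least 1 count in every sample that the tests used. The samples were NIH3T3 cells, an established mouse embryonic fibroblast line, and every group, controls included, stably carried DD-sfGFP. This is a fusion of a destabilizing domain (DD), a mutant FKBP12 domain that folds well while its ligand Shield-1 (S1) is bound and unfolds without it, to superfolder GFP. Controls (5 samples, time 0) kept S1, and S1 was removed 45 min (3 samples), 135 min (3 samples) or 405 min (4 samples) before harvest. The study's methods state that purified FKBP protein was added to the medium to take up S1, and that cells with high GFP were sorted as a population, with no single clone named. Cells given the FKBP protein without a DD were not analysed here.

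NRF1 is made as a protein of the endoplasmic reticulum membrane that is normally extracted, deglycosylated and cleaved before it can act, and when the proteasome is overloaded it drives transcription of proteasome genes. NRF2 is normally held by KEAP1, which hands it to a CUL3 ubiquitin ligase for degradation, and when it escapes it induces genes against oxidative and electrophilic stress. Both bind DNA as heterodimers with the small MAF proteins MAFF, MAFG and MAFK, and BACH1, a repressor of the same family, competes for the same sites. Control of NRF1 and NRF2 is thus largely at the protein level, which was not measured here.

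Depth ranged from 6652539 to 30258404 counts per sample, and levels are given as CPM, counts normalised to the library size with TMM factors. The libraries formed 2 sets by their GC slope, the slope of log2 CPM on exonic GC content over the tested genes. Library set 2 held control replicate 2, replicate 3 at 45 min and replicates 1, 2 and 4 at 405 min, with slopes between -0.384 and 0.035 (log2 CPM for every 10 points of GC). The 10 samples of set 1 had slopes between -1.44 and -0.673. As 3 of 4 samples at 405 min but 1 of 5 controls lay in set 2, values within each set are given where the set moves a result. Control replicate 3 stood apart in addition, with the lowest count total and the lowest slope, so results that rest on it are given with and without it. The 8 fibroblast markers examined reached at least 10 CPM in every sample, while the summed epithelial, leukocyte and endothelial markers stayed at or below 4.82 CPM. In bulk RNA a change in the share of cells with a transcript and a change in RNA per cell cannot be told apart. The labels do not say that replicates came from separate cultures, so the p-values measure the spread between these samples, which may be technical.

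The changes in the group turned on *Keap1* and *Mafg*, and the promoters of these genes are shown with that of *Nfe2l2*, the factor that KEAP1 holds. The sequences are from RefSeq (GRCm38.p6) and run from 250 bases before to 50 bases after the transcription start, on the strand of the gene. They were searched on both strands for TGACNNNGC, the core of the antioxidant response element bound by NRF factors with small MAF proteins, and matches are in capitals. The Keap1 window is chr9:21239283-21239582 (minus strand), that of Mafg chr11:120633498-120633797 (minus strand) and that of Nfe2l2 chr2:75704614-75704913 (minus strand).
Keap1: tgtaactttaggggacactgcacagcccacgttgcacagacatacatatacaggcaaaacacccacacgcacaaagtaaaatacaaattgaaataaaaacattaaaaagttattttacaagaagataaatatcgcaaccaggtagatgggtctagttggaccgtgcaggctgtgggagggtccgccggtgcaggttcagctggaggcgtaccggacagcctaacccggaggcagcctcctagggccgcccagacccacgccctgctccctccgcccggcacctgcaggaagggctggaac
Mafg: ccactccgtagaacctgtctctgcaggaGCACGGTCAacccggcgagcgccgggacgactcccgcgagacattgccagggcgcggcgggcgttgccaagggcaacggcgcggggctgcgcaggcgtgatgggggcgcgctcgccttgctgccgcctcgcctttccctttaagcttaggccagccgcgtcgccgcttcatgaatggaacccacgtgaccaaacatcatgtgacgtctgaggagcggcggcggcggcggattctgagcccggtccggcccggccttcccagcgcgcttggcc
Nfe2l2: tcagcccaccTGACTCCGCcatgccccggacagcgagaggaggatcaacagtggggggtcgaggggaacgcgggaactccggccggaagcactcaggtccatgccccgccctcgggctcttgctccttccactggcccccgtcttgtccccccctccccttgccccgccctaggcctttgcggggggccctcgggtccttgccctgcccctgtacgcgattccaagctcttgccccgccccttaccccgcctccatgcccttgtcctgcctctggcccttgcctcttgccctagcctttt

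In the *Mafg* promoter the match lay 222 bases before the start, on the opposite strand, so the strand of the gene reads GCACGGTCA there. In that of *Nfe2l2* it was TGACTCCGC, 240 bases before the start. The 9 genes had 15 promoter windows, and 4 windows of 4 genes held a match, the others being *Mafk* and *Maff*. That of *Mafk* lay 13 bases before the start, also on the opposite strand (GCGGTGTCA on the strand of the gene). That of *Maff* was TGACTCTGC, 112 bases before the start. A match was held by 12.4% of all 32851 mouse promoter windows in RefSeq. *Keap1*, *Nfe2l1*, *Ddi2*, *Ngly1* and *Bach1* had none in these windows. TGAGTCA, the AP-1 site, and GAANNTTC, the core of the heat shock element, were found in 0 of the 15 windows, against 5.2% and 7.86% of all windows. A match in letters is a description and was not tested for binding.

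Per transcript length, *Nfe2l2*, *Mafg* and *Nfe2l1* were the most abundant of the 9 mRNAs at every time. In controls the level in RPKM, a read level normalised to library size and transcript length by the authors, was 17.4 ± 4.54 (SD, n = 5) for *Nfe2l2*, 13.1 ± 3.43 for *Mafg* and 12.9 ± 7.41 for *Nfe2l1*. *Nfe2l2* exceeded *Mafg* in 5 of 5 controls, but *Mafg* exceeded *Nfe2l1* in only 3 of 5, so the order of that pair was not resolved. The other 6 lay far lower, with *Maff* at 4.07 RPKM, *Keap1* at 3.87, *Ngly1* at 3.83, *Bach1* at 3.49, *Ddi2* at 3.24 and *Mafk* at 1.63. In control replicate 3 the read total behind the RPKM was 1.669 times as large relative to the gene counts as in control replicate 1 (0.845 to 1.181 times in the other samples), which lowers all its RPKM values alike and leaves the order within the sample as it is. The ranges over controls of each neighbouring pair in this order overlapped. At 405 min the order had shifted. *Mafg* came first at 26.8 RPKM ± 0.521 (SD, n = 4), above *Nfe2l2* (24.7 ± 2.98) in 3 of 4 samples, and *Keap1* rose from the fifth to the fourth place at 12.7 RPKM ± 2.98, with a range that no longer overlapped that of *Maff* below it (5.04 ± 1.21). *Mafk* had the lowest mean (3.24 RPKM ± 0.587), but *Ngly1* (3.47 ± 1.2) lay above it in only 2 of 4 samples, so the last place was not resolved.

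**Figure D1:**
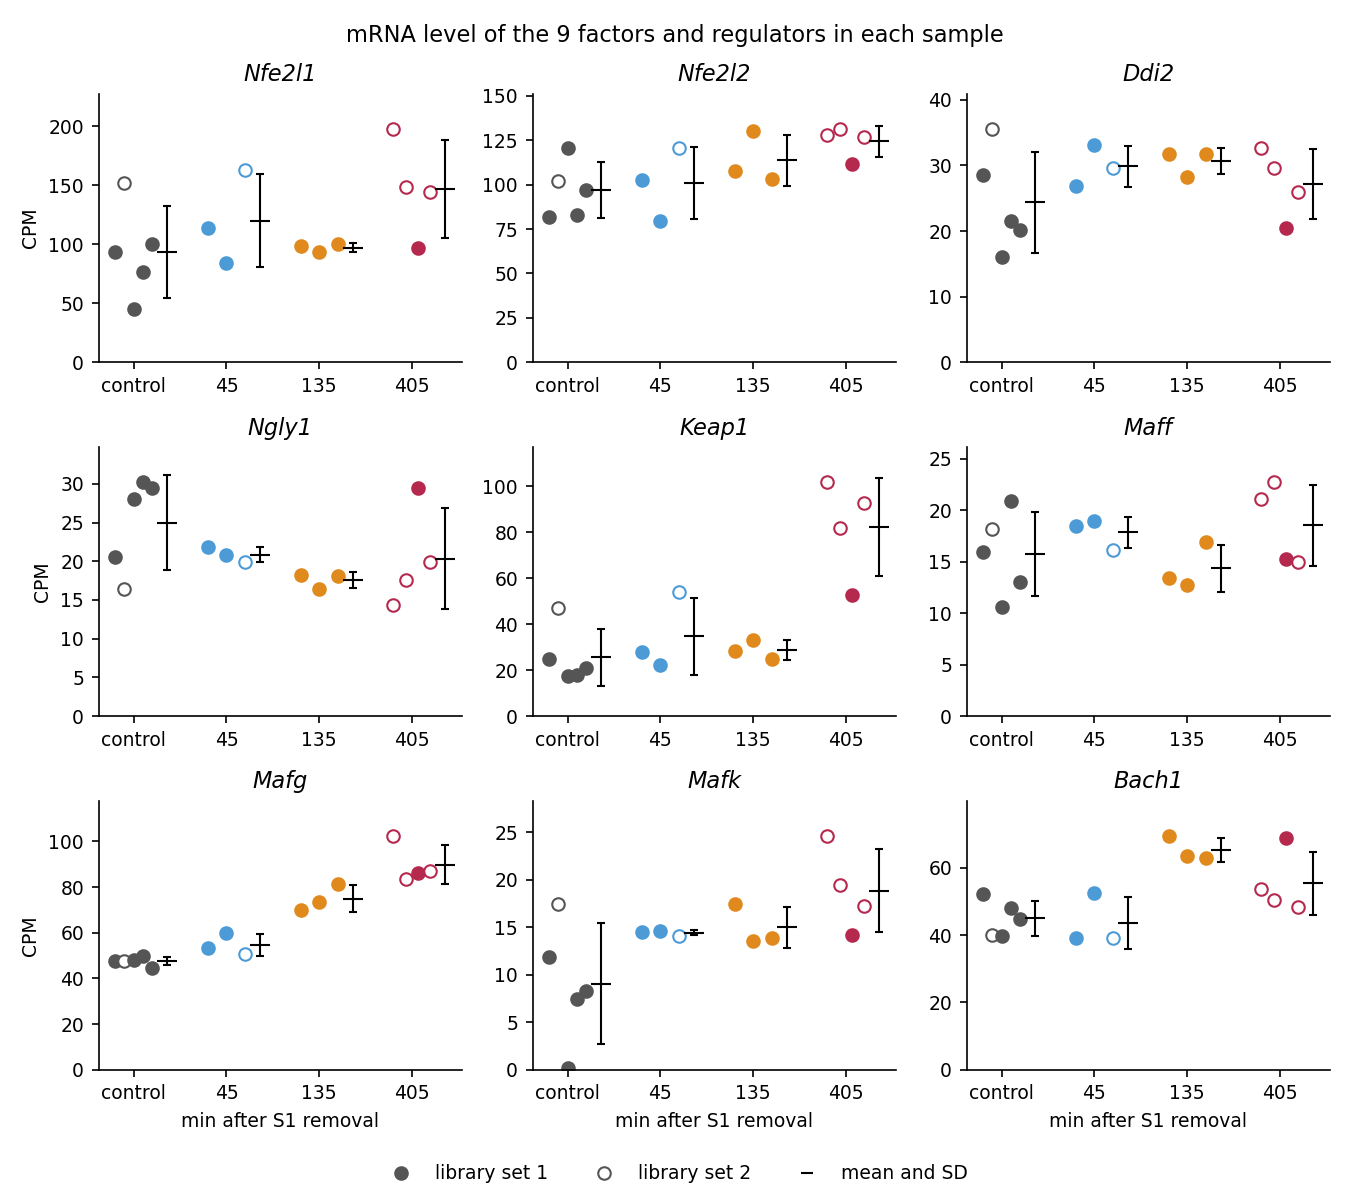
CPM of each gene (vertical axes, starting at 0) in the 15 samples by time after S1 removal, with filled points for library set 1, open points for set 2, and a bar for the mean and SD. All 4 samples at 405 min lie above all 5 controls in the panels of Keap1 and Mafg, and in that of Nfe2l1 the open points lie above all filled points.

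*Keap1*, the adaptor that presents NRF2 to its ubiquitin ligase, showed the largest change of the 9 genes. It lies on chromosome 9 (mm9 21034174 to 21043776, minus strand). The controls had 24.8, 47.2, 17.3, 17.7 and 21.0 CPM (replicates 1 to 5), and the samples at 405 min had 101.7, 81.9, 52.5 and 92.8 CPM (replicates 1 to 4). All 4 samples at 405 min were above all controls, although control replicate 2 at 47.2 CPM came close to replicate 3 at 405 min. The level was 27.9, 22.3 and 53.9 CPM at 45 min and 28.4, 33.3 and 24.7 CPM at 135 min, and no sample at 135 min reached the lowest value at 405 min. The 135-min samples, all of set 1, had a log2 fold change of 0.16 against all controls (SE 0.35, edgeR adjusted p 0.908) and of 0.51 against the 4 controls of set 1 at 17.3 to 24.8 CPM (SE 0.20, edgeR adjusted p 0.133).

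Against control, *Keap1* rose 3.2-fold at 405 min (log2 fold change, log2FC, 1.68, SE 0.32, edgeR adjusted p 0.00327). The high control and the 3 highest samples at 405 min shared library set 2. Within set 2 the 405-min samples had 81.9 to 101.7 CPM against 47.2 CPM in the single control (log2FC 0.95, SE 0.23, edgeR adjusted p 0.0278). Within set 1 the single sample at 405 min had 52.5 CPM against 17.3 to 24.8 CPM in 4 controls (log2FC 1.37, SE 0.26, edgeR adjusted p 0.0278), and with the set as a covariate the log2FC was 1.16 (SE 0.16, edgeR adjusted p 0.000209). The call was kept in all 26 alternative analyses, one of them with the dependence on GC content removed, with log2FC values from 0.93 to 2.02. Over the 15 samples the log2 CPM of *Keap1* had a Pearson correlation of 0.87 with the GC slope of the library. Its exons hold 59.5% GC, the highest of the 9 genes. The direct comparison of 405 min with 135 min gave a log2FC of 1.52 (SE 0.38, edgeR adjusted p 0.036), but with the set as a covariate it was 0.70 (edgeR adjusted p 0.0615) and within set 1 it was 0.86 (0.255). That call was also lost without control replicate 1 (log2FC 1.52, edgeR adjusted p 0.0512), without replicate 1, 2 or 3 at 135 min (1.51, 1.63 and 1.42, edgeR adjusted p 0.137, 0.119 and 0.148) and without replicate 1, 2 or 4 at 405 min (1.40, 1.52 and 1.45, edgeR adjusted p 0.0937, 0.0732 and 0.108). An antisense long noncoding RNA, Gm16754, shares 510 exonic bases with *Keap1* in the GENCODE vM1 annotation, and whether the counting used strand is not stated, so reads of this RNA could be counted under *Keap1*.

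*Mafg*, one of the small MAF proteins that NRF1 and NRF2 need to bind DNA, passed the threshold at 135 min and at 405 min. It lies on chromosome 11 (mm9 120489667 to 120494861, minus strand). The 5 controls were tightly grouped at 47.5, 47.8, 48.1, 49.9 and 44.7 CPM, and the samples at 45 min had 53.2, 59.9 and 50.8 CPM. At 135 min the level was 69.9, 73.6 and 81.6 CPM and at 405 min 102.4, 83.5, 86.1 and 87.0 CPM. The samples of the 3 time points were thus all above the highest control, at 45 min narrowly (50.8 CPM against 49.9 CPM). The 4 groups also did not overlap with one another, but how many of all genes show this was not counted. The coefficient of variation over the controls was 3.9%, the lowest among the 9 genes.

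*Mafg* rose 1.58-fold at 135 min (log2FC 0.66, SE 0.12, edgeR adjusted p 0.0153) and 1.89-fold at 405 min (log2FC 0.92, SE 0.11, edgeR adjusted p 0.000172). Its controls did not differ by library set. Control replicate 2, in set 2, had 47.8 CPM against 44.7 to 49.9 CPM in the controls of set 1. At 405 min the log2FC was 0.85 (edgeR adjusted p 0.0362) within set 1 and 0.92 (0.0335) within set 2. When the dependence on GC content was removed gene by gene in each library (a GC offset), the change at 405 min was 0.24 (edgeR adjusted p 0.478) and the change at 135 min 0.59 (0.295). The call at 135 min was also lost without replicate 1, 2 or 3 of that time (log2FC 0.70, 0.67 and 0.59, edgeR adjusted p 0.055, 0.0803 and 0.13). The steps between neighbouring times, 0.46 from 45 to 135 min (edgeR adjusted p 0.367) and 0.26 from 135 to 405 min (0.209), did not pass the threshold.

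*Bach1* (chromosome 16, mm9 87699199 to 87733591, plus strand), the repressor that competes with NRF factors for small MAF partners and sites, had its highest mean at 135 min. The controls had 52.1, 40.1, 39.7, 47.9 and 44.8 CPM, the samples at 45 min 39.2, 52.4 and 39.0 CPM, those at 135 min 69.4, 63.6 and 62.9 CPM and those at 405 min 53.8, 50.4, 68.9 and 48.4 CPM. All 3 samples at 135 min lay above all controls, while the 405-min samples overlapped both groups. The change at 135 min was 1.45-fold (log2FC 0.54, SE 0.16, edgeR unadjusted p 0.00447) and did not pass the threshold after adjustment (0.147). It passed with DESeq2 (0.54, adjusted p 0.0325), with the GC offset (0.61, edgeR adjusted p 0.0363) and with the library set as a covariate (0.48, edgeR adjusted p 0.0367), and the log2FC lay between 0.48 and 0.61 in all 25 alternatives. At 405 min it was 0.30 (SE 0.15, edgeR adjusted p 0.142), and with the set as a covariate 0.45 (0.0381). In the set 1 samples alone, which include all those at 135 min, the log2FC from 135 to 405 min was 0.06 (edgeR adjusted p 0.962), against -0.24 (0.353) over both sets.

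Across the 9 genes, 0 were called at 45 min, where 0.0% of the 10276 tested genes were called (edgeR adjusted p under 0.05), and DESeq2 also called 0 of the 9. None of the 9 had an unadjusted p under 0.05 in edgeR at that time, and their log2FC values lay between -0.26 and 0.64 with a median of 0.20. At 135 min 1 of 9 (*Mafg*) was called, up, against 1.46% of all tested genes in either direction and 0.564% up. At 405 min 2 of 9 (*Keap1* and *Mafg*) were called, both up, against 23.4% of all tested genes in either direction and 9.99% up, so the share called at 405 min was close to that of all genes. The median log2FC of the 9 genes was 0.23 at 135 min and 0.36 at 405 min, beside -0.06 and 0.00 over all tested genes. Between 45 and 135 min 0 of 9 were called (0.428% of all genes), with 2 of the 9 at an unadjusted p under 0.05 (*Mafg* and *Bach1*) and 1 called by DESeq2 (*Mafg*). Between 135 and 405 min 1 of 9 was called (*Keap1*, up), against 5.06% of all genes in either direction, 2.24% up and 2.82% down. All samples lay above all controls for 1 of 9 genes at 45 min (*Mafg*, 0.467% of all genes), for 2 of 9 at 135 min (*Mafg* and *Bach1*, 4.79%) and for 2 of 9 at 405 min (*Keap1* and *Mafg*, 6.75%), and for 0 of 9 genes did all samples of any time lie below the controls (0.448%, 4.75% and 6.43% of all genes). These comparisons share the same 5 controls.

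**Figure D2:**
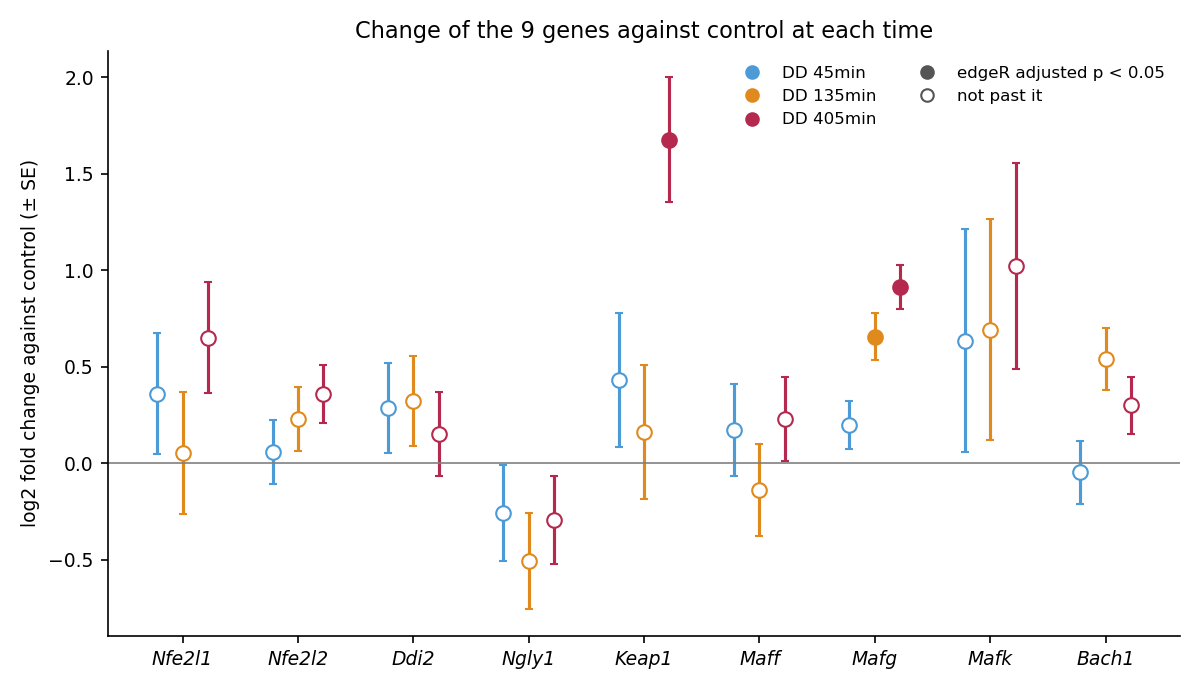
Log2 fold change against control (vertical axis, with the SE of the edgeR fit) of the 9 genes at 45, 135 and 405 min, filled where the adjusted p was under 0.05. Mafg at 135 and 405 min and Keap1 at 405 min are the filled points, and the SE of Mafk is the widest at each time.

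*Nfe2l1* itself did not pass the threshold at any time. It lies on chromosome 11 (mm9 96678728 to 96685441, minus strand). The controls had 93.3, 152.3, 45.1, 76.8 and 100.2 CPM, and the samples at 405 min 198.2, 148.6, 97.2 and 144.4 CPM. The values at 45 min were 113.5, 84.5 and 162.8 CPM, and those at 135 min were 98.4, 93.4 and 100.2 CPM. The control with 152.3 CPM, the 45-min sample with 162.8 CPM and the 3 highest samples at 405 min were the 5 samples of library set 2, which lay above all 10 samples of set 1. At 405 min the log2FC was 0.65 (SE 0.29, edgeR adjusted p 0.104), but 0.29 within set 1, 0.09 within set 2 and 0.08 with the GC offset. It passed the threshold without control replicate 2 (0.90, edgeR adjusted p 0.0116) or without replicate 3 at 405 min (0.81, edgeR adjusted p 0.0479), each of which belonged to the set that was rarer in its group. Over the 15 samples the log2 CPM of *Nfe2l1* had a Pearson correlation of 0.96 with the GC slope of the library, the highest of the 9 genes, and its exons hold 55.0% GC.

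*Nfe2l2*, the most abundant of the 9 in controls, did not pass the threshold either. It lies on chromosome 2 (mm9 75513576 to 75542698, minus strand). The level was 81.7, 102.2, 120.6, 83.1 and 97.0 CPM in controls, 102.6, 79.6 and 120.4 CPM at 45 min, 107.6, 130.2 and 103.1 CPM at 135 min and 128.0, 131.5, 111.7 and 126.5 CPM at 405 min. The highest control, replicate 3, lay among the 405-min samples, of which the other 3 were above all controls. The log2FC was 0.23 at 135 min (SE 0.16, edgeR adjusted p 0.636) and 0.36 at 405 min (SE 0.15, edgeR adjusted p 0.0886). Without control replicate 3, the library that stood apart, the change at 405 min was 0.43 and passed the threshold (edgeR adjusted p 0.0461), while within the sets and with the set as a covariate it did not.

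The ratio of *Keap1* to *Nfe2l2* in RPKM followed from these levels. It was 0.21 ± 0.096 in controls (SD, n = 5), 0.261 ± 0.0777 at 45 min (n = 3), 0.198 ± 0.0097 at 135 min (n = 3) and 0.514 ± 0.112 at 405 min (n = 4). All 4 values at 405 min, from 0.369 to 0.623, were above the highest control at 0.362. This control was the one of set 2, where the ratio at 405 min was 0.488 to 0.623 in 3 samples, while in set 1 the controls had 0.112 to 0.238 and the single sample at 405 min 0.369. The ratio of *Keap1* to *Cul3*, its ligase scaffold, went from 0.0805 ± 0.0626 in controls to 0.308 ± 0.126 at 405 min, where the lowest value (0.15) lay below the highest control (0.191). Within set 1 it was 0.0433 to 0.0649 in controls and 0.15 at 405 min, and within set 2 it was 0.191 in the control and 0.274 to 0.443 at 405 min. *Bach1* to *Nfe2l2* was 0.202 ± 0.0536 in controls and 0.245 ± 0.0346 at 135 min, with overlapping ranges.

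**Figure D3:**
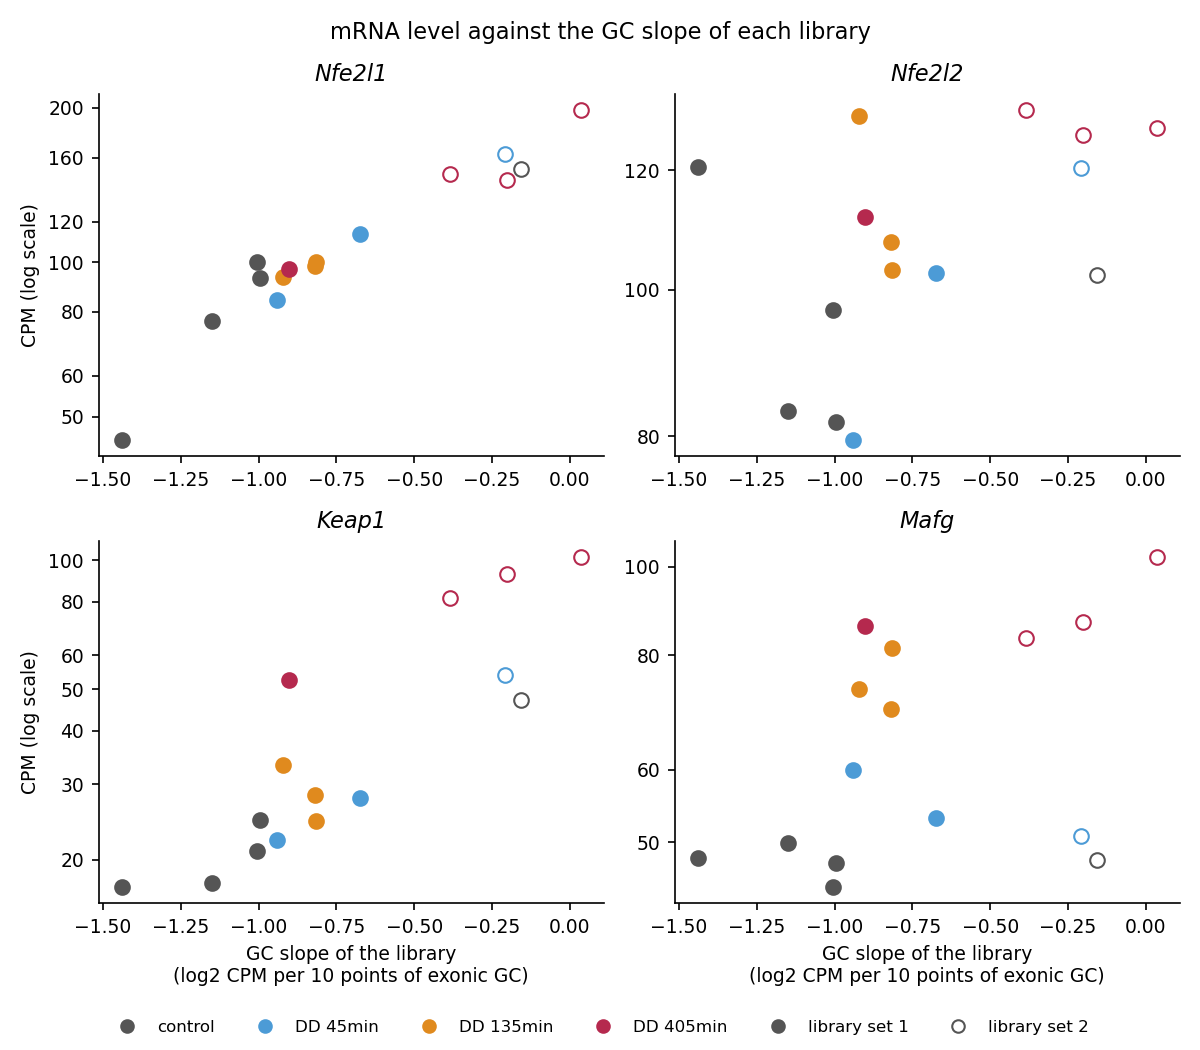
CPM (vertical axes, log scale) of Nfe2l1, Nfe2l2, Keap1 and Mafg against the GC slope of each library (horizontal axes, log2 CPM for every 10 points of GC) in the 15 samples, coloured by time and open for library set 2. Nfe2l1 (Pearson r 0.96) and Keap1 (0.87) follow the slope, whereas Mafg (0.43) is ordered by time at a given slope.

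Neither of the genes whose products process NRF1 passed the threshold at any time. *Ddi2* (chromosome 4, mm9 141239478 to 141279334) encodes the protease that cleaves NRF1 and *Ngly1* (chromosome 14, mm9 17081828 to 17144440) the N-glycanase that removes its sugars. *Ddi2* had 16.0 to 35.6 CPM in controls (median 21.5) and 26.9 to 33.1 CPM at 45 min, 28.3 to 31.8 CPM at 135 min and 20.4 to 32.7 CPM at 405 min, and these ranges overlapped. The log2FC was 0.32 at 135 min (SE 0.23, edgeR adjusted p 0.643) and 0.15 at 405 min (SE 0.22, edgeR adjusted p 0.602), and the latter turned negative within both sets (-0.10 and -0.29). *Ngly1* had 16.4 to 30.2 CPM in controls, 19.9 to 21.9 CPM at 45 min, 16.4 to 18.2 CPM at 135 min and 14.4 to 29.5 CPM at 405 min. It had the lowest log2FC of the 9 genes at each time, at -0.51 for 135 min (SE 0.25, edgeR adjusted p 0.447) and -0.30 for 405 min (SE 0.23, edgeR adjusted p 0.328). Its controls were also split by set, with 16.4 CPM in set 2 and 20.6 to 30.2 CPM in set 1, and the 405-min difference was 0.11 within set 1 and 0.07 within set 2. *Ddi2* contains the gene Rsc1a1 (2197 bases of shared gene span, at most 11 counts for Rsc1a1), with 1749 shared exonic bases on the same strand (GENCODE vM1). *Ngly1* overlaps Oxsm by 495 bases of gene span, but by only 21 exonic bases, on the opposite strand. Some reads could have been split between these pairs.

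Of the small MAF genes, *Mafg* was the bulk and the only one called. It made up 71.5% ± 7.2 of the summed small MAF RPKM in controls (SD, n = 5) and 76.5% ± 3.3 at 405 min (n = 4). The highest share, 83.1%, was that of control replicate 3. The mean sum was 18.8 RPKM ± 5.98 in controls and 25.4 ± 1.57 at 45 min. It was 30.4 ± 2.1 at 135 min and 35.1 ± 2.19 at 405 min. The control mean includes replicate 3, whose RPKM values are lowered by its read total and which had the lowest sum (8.71). The highest control sum (24.6) lay within the 45-min range of 23.7 to 26.9 and below the lowest at 135 min (28.8). *Maff* (chromosome 15, mm9 79178108 to 79189506) had 10.6 to 20.9 CPM in controls and 15 to 22.7 CPM at 405 min, with a log2FC of 0.23 (SE 0.22, edgeR adjusted p 0.424) that was -0.54 with the GC offset. *Mafk* (chromosome 5, mm9 140267490 to 140278606) had 11.9, 17.5, 0.2, 7.5 and 8.3 CPM in controls, where the value of 0.2 CPM was 1 count in replicate 3, and 24.6, 19.4, 14.2 and 17.2 CPM at 405 min. The control range reached into that of the 405-min samples through replicate 2 of set 2. The log2FC at 405 min was 1.02 (SE 0.53, edgeR adjusted p 0.156). Without control replicate 3 it was 0.71 (SE 0.25, edgeR adjusted p 0.0623) and without control replicate 2 it was 1.39 (edgeR adjusted p 0.036), while within set 2 it was 0.20. The 3' end of *Mafk* overlaps Tmem184a on the opposite strand by 169 exonic bases (GENCODE vM1).

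**Figure D4:**
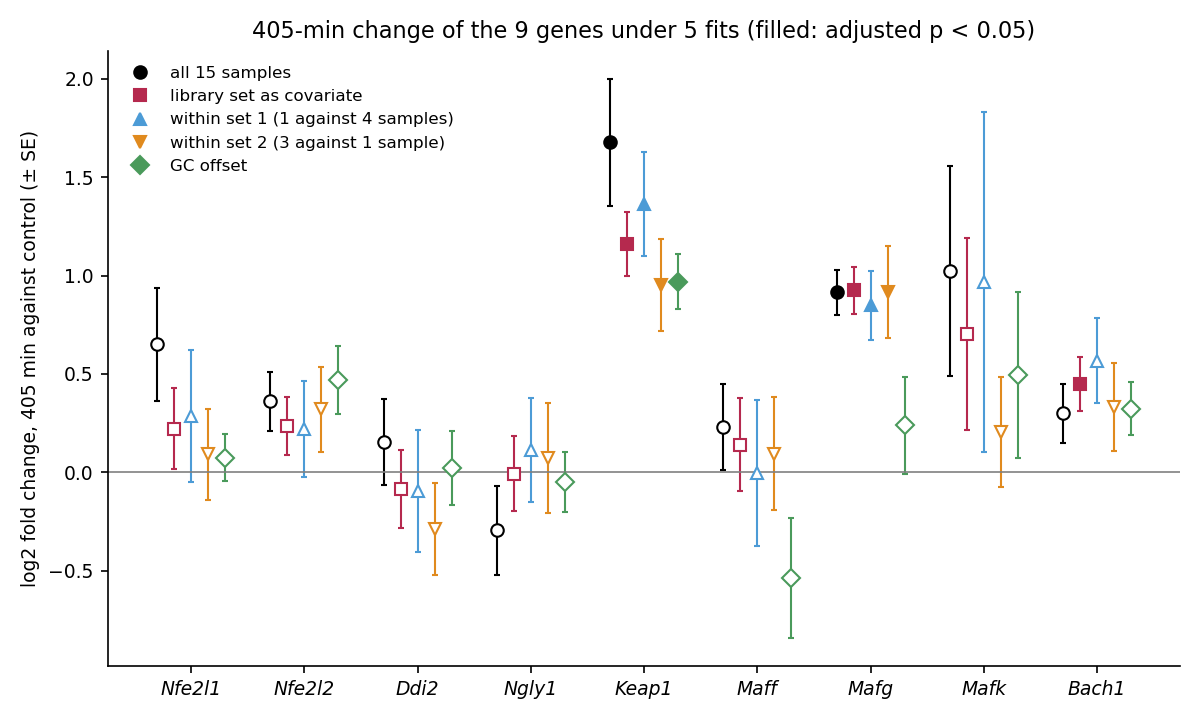
Log2 fold change at 405 min against control (vertical axis, with SE) of the 9 genes in 5 fits: all 15 samples, library set as a covariate, within set 1, within set 2 and with a GC offset, filled where the edgeR adjusted p was under 0.05. Keap1 is filled in all 5 fits, Mafg in all but the GC offset, and Nfe2l1 lies between 0.08 and 0.65 with no filled point.

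Other genes that act on NRF1 and NRF2 proteins were examined as a list of 29 names, of which 28 were in the tables and 27 were tested. At 135 min 0 of 27 passed the threshold in edgeR, with 6 at an unadjusted p under 0.05 and 1 called by DESeq2, beside 1.46% of all tested genes. Within set 1 4 of the list passed at 135 min, when 577 of 10364 tested genes were called in either direction. *Sqstm1* (log2FC 1.44, edgeR adjusted p 0.00437) and *Nploc4* (0.83, 0.00424) were among these 4. At 405 min 8 of 27 rose and 0 fell, with a median log2FC of 0.38 over the list, beside 0.00 over all tested genes. Upward calls were made for 9.99% of all tested genes at this time. *Vcp*, the ATPase that extracts ubiquitylated proteins such as NRF1 from the membrane, went from 580.4 CPM ± 179.0 in controls to 1501.2 CPM ± 220.6 at 405 min (log2FC 1.37, SE 0.20, edgeR adjusted p 0.000434), and its cofactor *Nploc4* from 88.9 CPM ± 21.1 to 248.8 CPM ± 57.5 (1.48, SE 0.18, edgeR adjusted p 0.000171). *Nploc4* was called in 26 of 26 alternatives (1.08 within set 1 and 1.12 within set 2) and *Vcp* in 25, the exception being set 2 alone (0.88, edgeR adjusted p 0.0675).

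The largest change of this list was that of *Sqstm1*, which encodes p62, an autophagy receptor that binds KEAP1. It went from 186.6 CPM ± 106.3 in controls to 383.4 ± 5.7 at 135 min and 1252.7 ± 496.9 at 405 min (log2FC 2.75, SE 0.40, edgeR adjusted p 0.000467), and it was called in 26 of 26 alternatives at 405 min. The size was smaller within set 1 (log2FC 2.10), within set 2 (1.99) and with the set as a covariate (2.08). *Dpp3*, a peptidase that also binds KEAP1, had a log2FC of 1.58 (SE 0.42, edgeR adjusted p 0.0179), and *Sel1l*, of the ubiquitin ligase complex of the endoplasmic reticulum, one of 0.60 (SE 0.19, edgeR adjusted p 0.0334). Within set 1 neither passed (*Dpp3* 1.34, edgeR adjusted p 0.0837, and *Sel1l* 0.43, 0.32), nor within set 2 (*Dpp3* 0.56, edgeR adjusted p 0.225, and *Sel1l* 0.38, 0.415). *Dpp3* also lost its call without replicate 1 or replicate 4 at 405 min (edgeR adjusted p 0.063 and 0.0505), and *Sel1l* in 6 of the 15 analyses that left out 1 sample, with edgeR adjusted p up to 0.106. *Cul3*, the scaffold of the KEAP1 ligase, had 313.3 CPM ± 56.2 in controls and 248.3 CPM ± 46.2 at 405 min and did not pass the threshold (log2FC -0.34, SE 0.17, edgeR adjusted p 0.144). Its log2FC was -0.15 within set 1, 0.07 within set 2, -0.05 with the set as a covariate and -0.001 with the GC offset. The count of 8 was sensitive to the samples used, as was the count over all tested genes (2409 of 10276, either direction). Without control replicate 2 the list count was 14, when 4980 of 10287 tested genes were called. Without replicate 3 at 405 min it was 13 (3561 of 10298). It was 3 without replicate 1 (969 of 10289) or replicate 4 (959 of 10281) at 405 min. It was 4 without replicate 2 at 405 min (1131 of 10278) or control replicate 4 (1374 of 10337), and 5 without control replicate 1 (1473 of 10321).

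**Figure D5:**
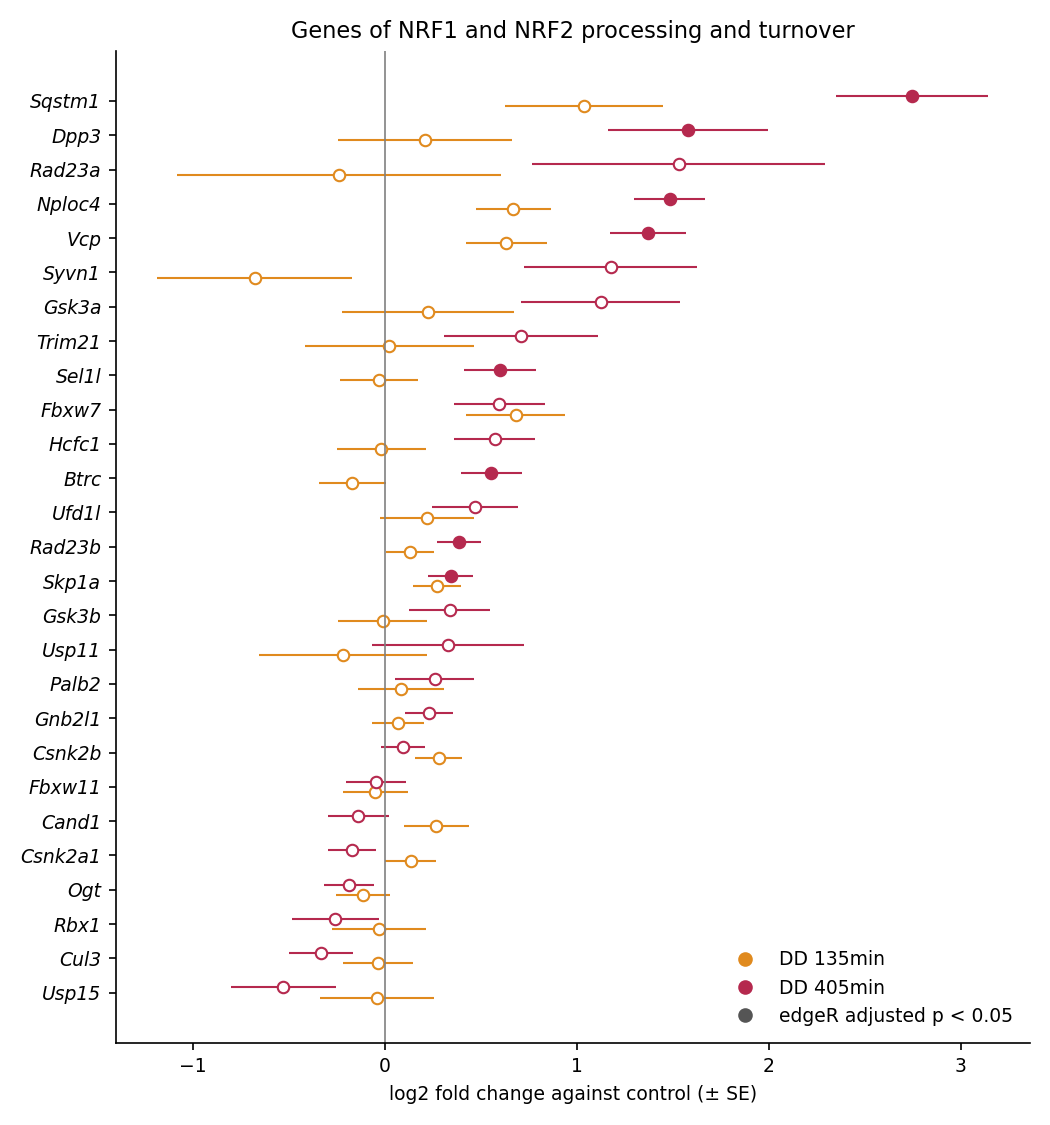
Log2 fold change against control (horizontal axis, with SE) of the 27 tested genes of NRF1 and NRF2 processing and turnover at 135 and 405 min, ordered by the change at 405 min and filled where the edgeR adjusted p was under 0.05. Filled points occur at 405 min only, 8 in all and each to the right of 0, with Sqstm1 at 2.75 the farthest.

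Of 11 further CNC and MAF family members and co-regulators, 5 were tested, and edgeR called 0 at 135 min and 0 at 405 min, against 1.46% and 23.4% of all tested genes, with 0 at an unadjusted p under 0.05 and 0 called by DESeq2 at either time. *Nfe2l3*, the third NRF factor, had 3.8 CPM ± 0.6 in controls and 3.5 CPM ± 1.5 at 405 min (log2FC -0.16, SE 0.38, edgeR adjusted p 0.757). Among the alternatives *Crebbp*, a coactivator, was called at 405 min with the GC offset (-0.58, edgeR adjusted p 0.0123, against -0.05 over all samples), and *Rxra*, a nuclear receptor, in 2 of 26. The others of the 11 had at least 1 sample with 0 counts and were not tested.

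Of 25 tested genes known to be induced by NRF2, 6 were up and 0 down at 135 min, when 0.564% of all tested genes were up and 0.895% down. At 405 min 20 were up and 1 (*Ugdh*) was down, when 9.99% of all tested genes were up and 13.4% down, and the medians at these times were 0.56 and 1.57 on the log2 scale. Set 1 holds every 135-min sample but only 1 sample at 405 min, so the counts of the 2 times cannot be compared within it. There 13 were called at 135 min, when 577 of 10364 tested genes were called in either direction. With the set as a covariate 14 were called at 135 min and 20 at 405 min, against 815 and 1340 of 10276 tested genes. The cystine transporter *Slc7a11* had a log2FC of 2.11 at 135 min (SE 0.50, edgeR adjusted p 0.0478) and 3.09 at 405 min (SE 0.48, edgeR adjusted p 0.000847), and sulfiredoxin (*Srxn1*) went from 44.9 CPM ± 26.0 in controls to 253.7 CPM ± 102.1 at 405 min (2.49, SE 0.37, edgeR adjusted p 0.000555). *Pgd*, of the pentose phosphate pathway, reached 2.33 (SE 0.60, edgeR adjusted p 0.0159) and did not pass within set 1 (1.82, 0.201) or without replicate 1 at 405 min (2.09, 0.0539). *Osgin1*, an oxidative stress-induced growth inhibitor, had a low control level of 1.8 CPM ± 1.2. At 135 min it had 15.1 CPM ± 1.6 (log2FC 3.05, SE 0.45, edgeR adjusted p 0.00216). At 405 min it had 20.9 CPM ± 8.4 (3.52, SE 0.44, edgeR adjusted p 0.000172). Within sets 1 and 2 the 405-min log2FC was 1.94 and 1.74 for *Srxn1*, 3.10 and 2.65 for *Osgin1* and 2.86 and 2.70 for *Slc7a11*, which did not pass within set 1 (edgeR adjusted p 0.0631). *Hmox1*, heme oxygenase and a gene that BACH1 represses, had log2FC values of 3.09 at 135 min and 1.79 at 405 min, with 484.5 CPM ± 46.0 and 197.2 CPM ± 74.9. Within set 1 these changes of *Hmox1* were 3.35 and 1.20, and within set 2 that at 405 min was 1.25. The 135-min call of *Slc7a11* was lost in 13 of the 15 analyses that left out 1 sample (log2FC 1.845 to 2.27 over all 15, edgeR adjusted p up to 0.206). Without replicate 1, 2 or 3 at 135 min 3 genes of this list were called at that time. Over all tested genes 43 of 10280, 45 of 10287 and 46 of 10277 were then called. Leaving out any 1 sample left 18 to 23 of the list called at 405 min, while calls over all tested genes ranged from 959 to 4980.

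Proteasome genes are the known targets of NRF1. From a list made up mostly of assembly factors and regulators, 14 genes were tested, and most subunit genes are not in that list. The paper reports that unfolded DD raised the mRNA of many proteasome subunits. The counts below are those of the 14 genes and do not describe the subunit genes. At 135 min 1 was up (*Psme4*) and 0 were down, against 0.564% and 0.895% of all tested genes. At 405 min 4 were up and 2 down, against 9.99% and 13.4% of all tested genes, with a median log2FC of 0.01. *Psme4*, which encodes the activator PA200, rose from 205.5 CPM ± 32.4 in controls to 322.8 CPM ± 22.5 at 135 min (log2FC 0.65, SE 0.15, edgeR adjusted p 0.0478) and 413.6 CPM ± 51.6 at 405 min (1.01, SE 0.14, edgeR adjusted p 0.000388), and the latter call was kept in 26 of 26 alternatives. The call at 135 min was lost in 13 of the 15 analyses without 1 sample (log2FC 0.57 to 0.71, edgeR adjusted p up to 0.262). The proteasome-bound deubiquitylase *Usp14* rose at 405 min (0.76, SE 0.11, edgeR adjusted p 0.000361), as did the ubiquitin receptor *Adrm1* (0.56, SE 0.17, edgeR adjusted p 0.0291), whose change was -0.25 with the GC offset (edgeR adjusted p 0.631). *Uchl5*, a second deubiquitylase of the proteasome, fell (-1.49, SE 0.51, edgeR adjusted p 0.0469), and the chaperone *Psmg4* fell (-0.88, SE 0.29, edgeR adjusted p 0.0416). Within the sets neither *Uchl5* (-0.75 and -0.22) nor *Psmg4* (-0.36 and -0.41) passed. With 1 sample left out, the calls were lost in 11 of 15 analyses for *Uchl5*, 10 for *Psmg4* and 6 for *Adrm1*. The count of 6 genes called at 405 min became 2 without replicate 1, 2 or 4 at 405 min or control replicate 1, 4 or 5, and 3 without control replicate 3 or any 1 sample at 135 min. Calls over all tested genes (2409 of 10276) also fell. They were 969, 1131 and 959 without replicate 1, 2 or 4 at 405 min, and 1473, 1374 and 1946 without control replicate 1, 4 or 5. They were 2036 of 11342 without control replicate 3, and 1990, 1989 and 1984 without replicate 1, 2 or 3 at 135 min.

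The genes whose log2 CPM followed that of *Nfe2l1* most closely over the 15 samples were *Tecr*, *Bat3*, *Fam100a*, *Rprl3* and *Ltbp3*, each with a Pearson correlation of 0.99, and of 0.98 to 0.99 in the 10 samples of set 1. The libraries differed in GC slope, as described above, and *Nfe2l1* had a correlation of 0.96 with it over the 15 samples. The part of the slope in these likenesses was not tested. For *Nfe2l2* the closest were *Ddx58* (0.90), *Ncoa3* (0.89), *Ick* (0.88), *Dcaf4* (0.87) and *Pi4ka* (0.86), with 0.83 to 0.91 in set 1, and its own correlation with the GC slope was 0.46.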

How the data were processed

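mRNA-seq was deposited for 15 samples, 1 table per sample, with the 20207 RefSeq genes of the mouse build mm9. Libraries were made with the NuGEN Encore kit per the labels (the methods describe a second protocol too), and reads were assigned to genes on the DNAnexus platform. The aligner and the use of strand are not given in the sources used here. The authors deposited an expected count per gene, which need not be whole and is written to 4 significant digits when large, and an RPKM value, which they normalized to length and to reads. The deposited score and ratio columns were not used for any result.

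Counts were rounded, and 10276 genes without a count of 0 in any sample were tested with edgeR 4.0.16 in R 4.3.3 (TMM factors, quasi-likelihood test, 1 term for group, all 15 samples in 1 fit) with Benjamini-Hochberg adjustment over all tested genes and a threshold of 0.05. The F statistic gave the SE (log2 fold change divided by its root). The fit was also run on simulated counts that held no library sets or GC slopes, so that run does not bear on either. Exonic GC content, from GENCODE vM1 exons on NCBIM37 (the assembly of mm9), was found for 95.9% of the tested genes. Library sets were separated at the largest gap in GC slope that left at least 2 samples on each side. Alternatives were DESeq2 1.42.0, other filters and size factors, fits to the compared groups only, a replicate block, a GC offset, the library set as a covariate or one set alone, and leaving out 1 sample. The members and 4 lists (processing and turnover partners, CNC and MAF family relatives with co-regulators, NRF2 targets, and proteasome assembly and regulator genes) were chosen with earlier results of these data known. From each list up to 5 called genes with the largest absolute change at 135 or 405 min are named, plus the 5 closest in pattern to *Nfe2l1* and *Nfe2l2*; *Cul3*, *Nfe2l3*, *Ugdh*, *Crebbp* and *Rxra* were named after their values were seen. Coordinates are 1-based, on mm9 for genes and GRCm38.p6 for promoters.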

Additional observations from a re-analysis of the deposited data

Results flagged for a closer look

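*Keap1* in control replicate 2 stood at 47.2 CPM, apart from the other 4 controls at 17.3 to 24.8 CPM. The gap to the nearest control was 0.747 of the range of the group, past the limit for 5 samples. This sample belonged to library set 2, the other 4 controls to set 1. In all 18 groups of 4 or 5 samples were checked in this way and 1 was singled out, where chance singles out about 1 in 20.

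The change of *Keap1* differed between times, with a log2 fold change of 1.515 from 135 to 405 min in the direct test (edgeR adjusted p 0.036). All samples at 135 min belonged to library set 1 and 3 of the 4 at 405 min to set 2. Within set 1 the difference was 0.856 (edgeR adjusted p 0.255), from 24.7 to 33.3 CPM in 3 samples at 135 min and 52.5 CPM in 1 sample at 405 min. The part of the library set in the pooled difference was not tested beyond these values.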

How the results depend on the processing

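Of the changes of single members (23 in all, each under 25 or 26 other settings), 14 values changed sign, and none of these passed the threshold before or after. At 135 min *Nfe2l1* went to -0.11 without control replicate 3 and -0.009 without control replicate 4, and leaving out 1 sample gave -0.11 to 0.299. At 405 min *Ddi2* went to -0.047 with the replicate block and GC offset, -0.084 with the set as a covariate, -0.096 within set 1 and -0.287 within set 2, *Ngly1* to 0.113 and 0.072 within sets 1 and 2, and *Maff* to -0.536 with the GC offset, -0.59 with block and offset and -0.002 within set 1. From 135 to 405 min *Mafg* went to -0.345 with the GC offset and -0.342 with block and offset, and *Bach1* to 0.064 within set 1. Of the list genes, *Adrm1* at 405 min went to -0.249 and -0.355 with these offsets, losing its call.

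The count of members called at 135 min (1) was 0 with no filter, 0 in the fit to the compared groups and 0 with the replicate block. It was 0 with block and GC offset, and 2 with DESeq2 and with the set as a covariate. The settings with 0 called 80 of 19601, 40 of 10399, 31 of 10276 and 79 of 9853 tested genes, in that order. DESeq2 called 430 and the covariate 815 of 10276, instead of 150. At 405 min (2) it was 1 with the GC offset and 1 with block and offset. These called 2856 and 1735 of 9853 tested genes, instead of 2409 of 10276. From 45 to 135 min (0) DESeq2 gave 1, when it called 117 of 10276 tested genes instead of 44. From 135 to 405 min (1) the count of members was 0 with no filter, block, block and offset, and covariate. Calls over all tested genes were then 207 of 19601, 15 of 10276, 251 of 9853 and 378 of 10276, instead of 520. Partners at 135 min (0) numbered 1 with DESeq2, 2 with the GC offset, 5 with the covariate and 4 in set 1. The GC offset called 248 of 9853 tested genes at that time and set 1 577 of 10364. At 405 min (8) partners numbered 4 with no filter and 3 in the compared groups and with the block. These settings called 1724 of 19601, 812 of 10328 and 800 of 10276 tested genes, instead of 2409 of 10276. The count was also lower within each set, where 1 group holds 1 sample. NRF2 targets at 135 min (6) numbered 3 in the compared groups, 1 with the block, 14 with the covariate and 13 in set 1, and at 405 min (21) 11 in set 1. Proteasome assembly and regulator genes at 135 min (1) numbered 0 with no filter, a filter by expression, the compared groups and the block. With DESeq2 they numbered 2. The filter by expression called 123 of 12261 tested genes at that time. At 405 min (6) they numbered 3 with no filter, 2 in the compared groups, 2 with the block and 3 with block and offset. Within each set, where 1 group holds 1 sample, their count was lower too. Leaving out 1 sample gave 0 to 0, 0 to 1 and 2 to 4 members at 45, 135 and 405 min (4 without control replicate 2, 0 at 135 min without any 1 sample of that time), 0 to 0 and 0 to 1 between neighbouring times, 0 to 3 (3 without control replicate 2) and 3 to 14 partners, 3 to 9 and 18 to 23 NRF2 targets, and 0 to 1 and 2 to 9 proteasome genes at 135 and 405 min. Over all tested genes the calls at 135 min ranged from 43 (without replicate 1 of that time) to 297 (without control replicate 2). At 405 min they ranged from 959 (without replicate 4 of that time) to 4980 (without control replicate 2).

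Samples with the same replicate number did not deviate alike on average. Deviations from the group means correlated at -0.11 on average over 19 pairs with the same number and 0.028 over 64 with different numbers. The mean was 0.157 over 42 pairs within a library set and -0.168 over 41 pairs across sets. Same-numbered samples often lay in different sets, so these values cannot decide whether the numbers pair the samples. With the replicate block 31 genes were called at 135 min and 800 at 405 min instead of 150 and 2409. With the GC offset 890 genes were up and 1966 down at 405 min, against 1027 and 1382. The library-set settings were chosen after seeing the data. No sample at 135 min lay in set 2, so that comparison could not be made there, and within a set 405 min rests on 1 sample in one of the groups, which is assumed to vary like the rest. Depth limits the low genes most, with 1 count of *Mafk* in control replicate 3.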
